A study of Homo sapiens with 6 samples.

Results

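The 40 genes described here encode the protein folding, import and disposal machinery of the endoplasmic reticulum (ER). They were taken by name from the deposited table of 26475 genes and fall into 10 groups by role. These are Hsp70 and Hsp90 chaperones with their partners, lectin chaperones, protein disulfide isomerases, secreted stress proteins, ER-associated degradation, stress sensors, the translocon, the translocon-associated (TRAP) complex, ER FKBP isomerases and reticulocalbins. RNA sequencing measured them in HepG2, a human liver cancer line, with 3 libraries of cells expressing TAF2, which is part of the basal factor TFIID, and 3 of cells expressing enhanced green fluorescent protein (eGFP). All cultures were growing exponentially, and the sources used here name no further treatment, the promoter of the introduced genes, or whether a line was a single clone. Levels are given as CPM, counts scaled to a library size of 1000000 after normalization.

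The ER takes up nascent secretory and membrane proteins through the Sec61 channel, folds them with chaperones and disulfide isomerases, and sends those that fail to fold back to the cytosol for degradation. When unfolded proteins build up, the sensors ATF6, IRE1 (gene ERN1) and PERK (gene EIF2AK3) start the unfolded protein response, in which the cleaved ATF6 fragment and spliced XBP1 switch on chaperone and degradation genes. Hepatocytes carry a heavy secretory load, and HepG2 cells still secrete many plasma proteins. Gene counts show the amount of XBP1 mRNA but not its splicing.

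Library totals ranged from 22276308 to 28024004 expected counts. The level of TAF2 itself was 35.8, 40.4 and 37.5 CPM in the eGFP libraries and 50.1, 48.3 and 47.4 CPM in the TAF2 libraries, a 1.28-fold difference without overlap (edgeR log2 fold change 0.36, adjusted p = 1.44e-08). All 8 hepatocyte markers examined were found, and their summed level ran from 47827 to 49333 CPM in eGFP and from 38364 to 40169 CPM in TAF2 libraries, with 7 called lower and FGB called higher. All 4 endothelial markers stayed under 1 CPM in each library, and PTPRC, CD3E and HBB of the 4 blood markers were at 0, while CD68 went from 47.2 to 35.8 CPM. Of 6 fibroblast markers 3 were under 1 CPM in each library, 2 (COL1A1 and PDGFRB) were called higher, and the sum was 55.1 to 58.6 CPM in eGFP against 66.2 to 70.6 CPM in TAF2 libraries. The 4 cholangiocyte markers, of which KRT7 was under 1 CPM, summed to 771 to 784 CPM in eGFP and 1221 to 1228 CPM in TAF2 libraries. They did not move together: SPP1 (336 to 739 CPM) and KRT19 (212 to 264 CPM) were called higher, and SOX9 (231 to 221 CPM) lower. The part of these marker changes in the results below was not tested. Nothing in the labels ties the replicates to separate cultures. The p-values thus reflect variation among the 6 libraries alone, and that variation could be technical.

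Most of the ER machinery differed little between the groups, and 2 genes stood far lower with TAF2. FKBP11, an ER prolyl isomerase, was 4.79-fold lower, and RCN1, the calcium-binding reticulocalbin 1, was 2.63-fold lower. FKBP2, another ER prolyl isomerase, was 1.46-fold lower. The main chaperone HSPA5 (BiP) and its J-domain partner DNAJB11 were slightly higher, by 1.08-fold and 1.17-fold, while the ubiquitin ligase SYVN1 and the mannosidase-like protein EDEM1, both of the degradation pathway, were lower by 1.22-fold and 1.17-fold. RCN1, FKBP2 and SYVN1 lie on chromosome 11, where genes of at least 5 CPM had a median log2 fold change of -0.27. There 94.6% of 593 genes were lower with TAF2. The part of this shift in the falls of RCN1, FKBP2 and SYVN1 was not tested. The remaining members lay within 1.2-fold of the eGFP level.

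In counts, 39 of the 40 genes passed the filter on low values, and 21 of them were called at a Benjamini-Hochberg adjusted p of 0.05 by edgeR's quasi-likelihood test, 5 higher and 16 lower with TAF2. That is 53.8% of the members against 43.0% of all 12902 tested genes. Over all tested genes 20.6% were called higher and 22.4% lower. The median log2 fold change of the members was -0.07, beside a median over all tested genes of -0.0027. Groups did not overlap in 24 members (61.5%, against 50.6% of all tested genes). Most calls were small: 17 of the 21 were below 1.2-fold, and 4 were past it (18.6% of all tested genes were called at that size). Of the tested members 89.7% lay within 1.2-fold of the eGFP level, against 75.2% of all tested genes. The median absolute log2 fold change was 0.09 for the members and 0.13 over all tested genes. In size, the typical member thus changed less than the typical tested gene. Replicate libraries differed little, with a median coefficient of variation of the members of 2.18% in eGFP and 2.43% in TAF2 libraries. When edgeR's glmTreat asked for a change beyond 1.2-fold, 3 members were called, all lower (FKBP11, RCN1 and FKBP2), and 0 higher, also 0 at an unadjusted p under 0.05. Of all tested genes, 9.63% were called by glmTreat at that setting. DESeq2 called 4 members higher and 14 lower, and 23.4% of all 17454 genes it was given. Those 17454 include genes that the filter on low values removed, and genes left without an adjusted p counted as not called. The 23.4% is thus not a like background for the members.

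**Figure D1:**
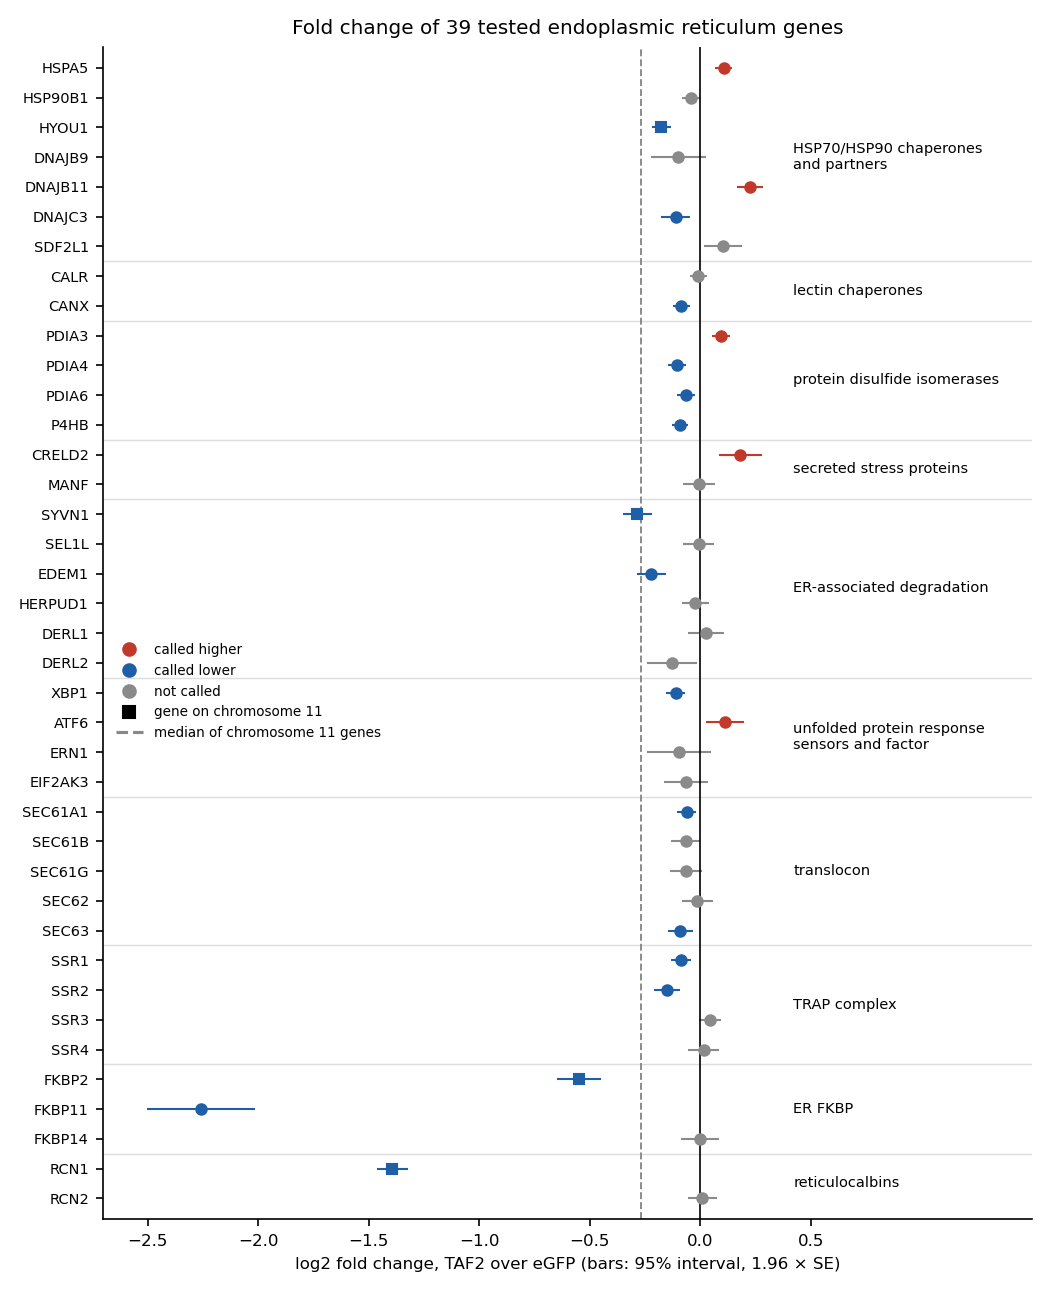
Log2 fold change of each of the 39 tested genes, TAF2 over eGFP, grouped by role. Points are edgeR estimates and bars 95% intervals (n = 3 libraries a group). Squares are the 4 genes on chromosome 11 and the dashed line is the median of chromosome 11 genes, -0.27. FKBP11 (-2.26) and RCN1 (-1.39) lie far to the left, and 35 genes lie within 1.2-fold (89.7%, against 75.2% of all tested genes).

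The sum over the 40 genes was 13519 ± 37.3 CPM in eGFP and 13063 ± 72.4 CPM in TAF2 libraries (SD, n = 3 each), 3.37% lower with TAF2. By role, the summed level changed most in the reticulocalbins (-32.7%) and FKBP proteins (-21.0%), and least in the Hsp70 and Hsp90 group (0.494%). By length-scaled level (CPM per kb of transcript), the most abundant in eGFP cells were the disulfide isomerase P4HB at 846, the lectin chaperone CALR at 688, the Hsp90 protein HSP90B1 at 470 and HSPA5 at 355 CPM per kb. The lowest among tested members was the sensor ERN1 at 1.76 CPM per kb. FKBP11 was also low, at 12.1 CPM per kb in eGFP and 2.53 in TAF2 libraries, and RCN1 went from 40.8 to 15.5 CPM per kb. DERL3, a derlin of the retrotranslocation machinery, had 0 counts in all 6 libraries, which allows up to 0.135 CPM in the shallowest library, counting error only. It is the member that was not tested.

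**Figure D2:**
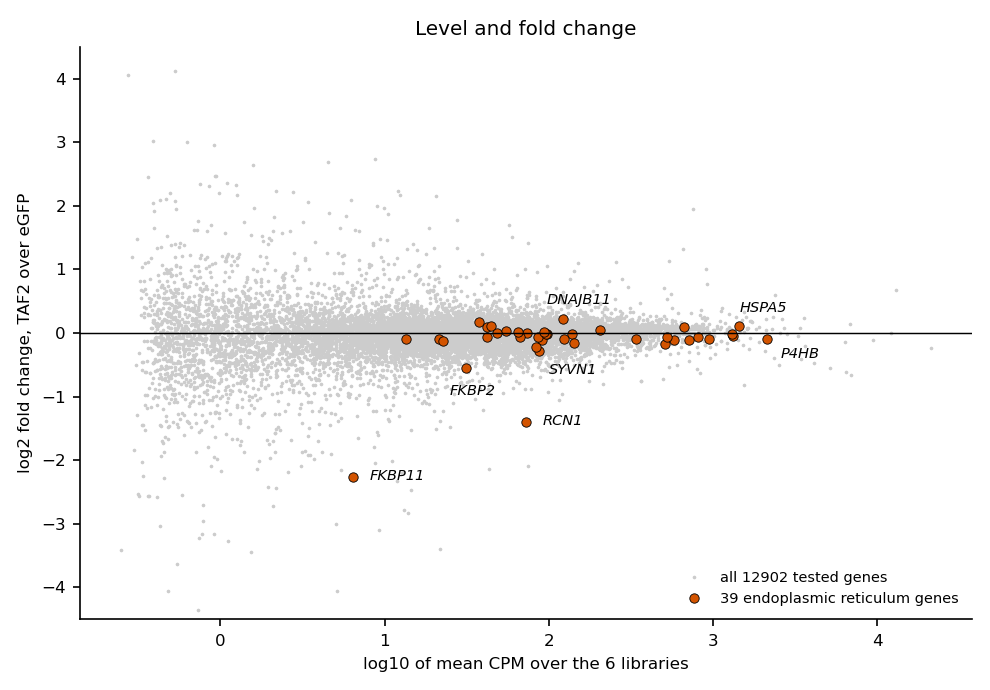
Log2 fold change (TAF2 over eGFP) against log10 of the mean CPM over the 6 libraries for all 12902 tested genes (grey) and the 39 tested ER genes (orange). The axis is limited to 4.5 in either direction, which leaves out 8 genes. ER genes of high level lie close to 0, and FKBP11, RCN1 and FKBP2 lie below the band of most genes.

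Promoters of genes of the unfolded protein response carry known elements, and their letters are shown here because they mark members that stress factors are known to act on. The ER stress response element (ERSE) was searched as CCAAT and CCACG with 9 free bases between them, and its variant ERSE-II as ATTGG and CCACG with 1 free base between them. Letters were matched exactly on both strands, in the RefSeq window from 250 bases before to 50 after each gene's start (GRCh38.p14). Of 40 members 36 were in that table. PDIA3, DERL1, DERL3 and FKBP14 were not matched. ERSE was found in 6 of 36 (16.7%) against 22 of 27305 promoters (0.0806%), and ERSE-II in 3 (8.33%) against 15 promoters (0.0549%). Since the list holds genes already known as stress targets, this share is not independent of how it was put together. In the stretches below, 5′ to 3′ on the gene's strand, capitals mark the fixed letters of each match and, in HYOU1, also those of the 8-letter element TGACGTGG (UPRE), which overlaps its first ERSE-II match.
HSPA5: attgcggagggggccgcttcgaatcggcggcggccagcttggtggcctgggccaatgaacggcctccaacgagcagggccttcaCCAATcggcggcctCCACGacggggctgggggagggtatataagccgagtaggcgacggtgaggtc
HSP90B1: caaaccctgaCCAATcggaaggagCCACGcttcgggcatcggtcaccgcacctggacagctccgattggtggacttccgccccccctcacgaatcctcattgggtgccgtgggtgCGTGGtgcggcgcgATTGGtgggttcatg
CALR: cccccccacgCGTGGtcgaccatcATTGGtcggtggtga
CANX: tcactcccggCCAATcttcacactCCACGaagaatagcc
CRELD2: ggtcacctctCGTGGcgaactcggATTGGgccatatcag
XBP1: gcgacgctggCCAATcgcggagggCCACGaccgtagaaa
HYOU1: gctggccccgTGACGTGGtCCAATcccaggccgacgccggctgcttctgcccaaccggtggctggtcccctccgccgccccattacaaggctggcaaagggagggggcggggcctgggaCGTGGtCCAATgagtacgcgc
SDF2L1: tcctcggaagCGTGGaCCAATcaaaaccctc
HERPUD1: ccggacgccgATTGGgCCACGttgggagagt

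These windows lie at chr9:125241344-125241493, minus strand (HSPA5), chr12:103930206-103930349, plus strand (HSP90B1), chr19:12938374-12938412, plus strand (CALR), chr5:179698768-179698806, plus strand (CANX), chr22:49918544-49918582, plus strand (CRELD2), chr22:28800593-28800631, minus strand (XBP1), chr11:119057264-119057403, minus strand (HYOU1), chr22:21642104-21642134, plus strand (SDF2L1) and chr16:56932015-56932045, plus strand (HERPUD1), each upstream of the start used in the promoter table. For CANX that start lies inside the gene's listed span, which reaches further upstream. HSP90B1 holds 2 ERSE matches and HYOU1 2 ERSE-II matches. The element UPRE was also found in SEC62, and in 2 of 36 members (5.56%) against 217 promoters (0.795%). The 9 genes with ERSE or ERSE-II did not move one way: HSPA5 and CRELD2 were called higher, CANX, XBP1 and HYOU1 lower, and HSP90B1, CALR, SDF2L1 and HERPUD1 were not called. Their log2 fold changes ran from -0.18 to 0.18 with a median of -0.02. A match describes letters only and says nothing of binding in these cells.

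Among the stress sensors and their factor, XBP1 fell slightly, ATF6 was called slightly higher, and ERN1 and EIF2AK3 were not called. XBP1, whose spliced mRNA encodes an activator of chaperone and degradation genes, held 602, 584 and 606 CPM in the 3 eGFP libraries and 543, 559 and 556 CPM in the 3 TAF2 libraries. Every TAF2 library was below every eGFP library (edgeR log2 fold change -0.11 ± 0.0216 SE, adjusted p = 3.81e-05). ATF6, the membrane-bound factor that is cut free under stress, went from 42.9 ± 1.59 to 46.5 ± 1.43 CPM (mean ± SD of 3 libraries), and the groups did not overlap (edgeR log2 fold change 0.11 ± 0.0438 SE, adjusted p = 0.0334). This call was lost with DESeq2 (adjusted p = 0.128) and on leaving out 1 library, either eGFP 2 (0.0929) or eGFP 3 (0.106), or TAF2 1 (0.0954) or TAF2 2 (0.0866). ERN1, the kinase and RNase that splices XBP1, had a log2 fold change of -0.10 (95% interval -0.24 to 0.05) and EIF2AK3, the kinase that phosphorylates the initiation factor eIF2 alpha, -0.07 (-0.17 to 0.03). Neither was called.

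The Hsp70 system was split. HSPA5, the ER Hsp70, held 1374, 1396 and 1390.4 CPM in the 3 eGFP libraries and 1489, 1474 and 1515 CPM in the 3 TAF2 libraries. All TAF2 libraries were above all eGFP libraries, by 7.64% on average (edgeR log2 fold change 0.11 ± 0.0193 SE, adjusted p = 1.56e-05). DNAJB11 (ERdj3), the J-domain protein that hands unfolded chains to HSPA5, had the largest rise of the 40 genes. It held 112, 115 and 109 CPM in the 3 eGFP libraries and 131, 134 and 128 CPM in the 3 TAF2 libraries, with no overlap (edgeR log2 fold change 0.22 ± 0.0289 SE, adjusted p = 1.8e-08). SDF2L1, which works in a complex with DNAJB11, went from 40.6 ± 0.963 to 43.6 ± 0.383 CPM (mean ± SD of 3 libraries). Its groups did not overlap, but it was not called (log2 fold change 0.10, edgeR adjusted p = 0.0534). It was called in 4 of 12 alternatives other than glmTreat. These were RLE scaling (0.0449), upper-quartile scaling (0.0283), all genes with a count kept (0.0423) and eGFP replicate 2 left out (0.0482). The alternatives without a call include DESeq2 (adjusted p = 0.181) and edgeR without eGFP replicate 3 (0.186).

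Other partners of HSPA5 were lower or not called. HYOU1 (GRP170), the large Hsp70-like protein that exchanges nucleotide on HSPA5, held 541, 544 and 529 CPM in the 3 eGFP libraries and 467, 474 and 488 CPM in the 3 TAF2 libraries, a fall without overlap (edgeR log2 fold change -0.18 ± 0.0220 SE, adjusted p = 8.93e-09). HYOU1 lies on chromosome 11, where genes of at least 5 CPM had a median log2 fold change of -0.27 and 94.6% of 593 were lower with TAF2. Whether its fall reflects the chromosome was not tested. Within a library, the log2 ratio of HSPA5 to HYOU1 was 1.34 to 1.39 in eGFP and 1.64 to 1.67 in TAF2 libraries. DNAJC3 (p58IPK), another J-domain protein of the ER, fell from 95.1 ± 2.08 to 87.9 ± 3.17 CPM (mean ± SD of 3 libraries, edgeR log2 fold change -0.11 ± 0.0330 SE, adjusted p = 0.00515), a call lost without TAF2 replicate 2 (0.0709). The log2 ratio of DNAJB11 to DNAJC3 was 0.22 to 0.26 in eGFP and 0.49 to 0.66 in TAF2 libraries. Both ratios set a gene that rose without overlap against one that fell without overlap. Their separation follows from that and is no further evidence. DNAJB9 (ERdj4), which represses IRE1, had a log2 fold change of -0.10 (95% interval -0.22 to 0.03) and was not called. HSP90B1 (GRP94), the ER Hsp90, had -0.04 (-0.08 to -0.00) and was called only when TAF2 replicate 1 was left out (adjusted p = 0.0270).

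The secreted stress proteins and the lectin chaperones moved by less than 1.2-fold. CRELD2, a secreted protein induced by ER stress, held 33.2, 38.5 and 34.3 CPM in the 3 eGFP libraries and 40.5, 39.8 and 39.5 CPM in the 3 TAF2 libraries. The groups did not overlap, but eGFP replicate 2 lay close to the TAF2 values (edgeR log2 fold change 0.18 ± 0.0494 SE, adjusted p = 0.00262). MANF, the other secreted stress protein, had a log2 fold change of -0.01 (95% interval -0.08 to 0.06). The lectin chaperones bind glycoproteins by their sugar: the soluble CALR had -0.01 (-0.05 to 0.03), and the membrane-bound CANX fell from 973 ± 6.75 to 917 ± 15.2 CPM (mean ± SD of 3 libraries, edgeR log2 fold change -0.09 ± 0.0201 SE, adjusted p = 4.64e-04).

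All 4 protein disulfide isomerases were called (43.0% of all tested genes were), in different directions. PDIA3 (ERp57), which works with CALR and CANX on glycoproteins, rose from 643 ± 8.64 to 687 ± 9.02 CPM (mean ± SD of 3 libraries, edgeR log2 fold change 0.09 ± 0.0208 SE, adjusted p = 2.65e-04). A near-identical pseudogene, PDIA3P1, has a row of its own at 7.97 CPM in eGFP and 8.27 CPM in TAF2 libraries, so reads could be divided between them. P4HB, the founding isomerase and the most abundant, held 2214, 2185 and 2208 CPM in the 3 eGFP libraries and 2052, 2069 and 2079.5 CPM in the 3 TAF2 libraries, a fall of 6.16% without overlap (edgeR log2 fold change -0.09 ± 0.0185 SE, adjusted p = 7.12e-05). PDIA4 (log2 fold change -0.11) and PDIA6 (-0.07) also fell. The PDIA6 call was lost with upper-quartile scaling (adjusted p = 0.0592) and without eGFP replicate 1 (0.112), TAF2 replicate 1 (0.105) or TAF2 replicate 2 (0.0517). The log2 ratio of PDIA3 to PDIA4 within a library was -0.21 to -0.20 in eGFP and -0.02 to 0.01 in TAF2 libraries. This separation follows from the rise of PDIA3 and the fall of PDIA4, each without overlap.

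The 5 translocon estimates lay between -0.09 and -0.01, and 2 were called lower (40.0%, against 22.4% of all tested genes). SEC61A1, the channel, had a log2 fold change of -0.06, and its groups overlapped. It was called (edgeR adjusted p = 0.0211), but in only 4 of 12 alternatives other than glmTreat. The small channel subunits SEC61B (-0.07, 95% interval -0.13 to -0.00) and SEC61G (-0.07, -0.14 to 0.01) were not called. SEC63, the J-domain protein that recruits HSPA5 to the channel, fell from 127 ± 1.86 to 119 ± 2.68 CPM (mean ± SD of 3 libraries, edgeR log2 fold change -0.09 ± 0.0284 SE, adjusted p = 0.00889), a call lost with DESeq2 (0.0711) and without eGFP replicate 2 (0.0584) or TAF2 replicate 3 (0.0788). Its partner SEC62 had -0.01 (-0.08 to 0.06). In the TRAP complex, which sits beside the channel and helps some proteins to enter, SSR2 fell from 150.2 ± 3.69 to 135 ± 5.89 CPM (mean ± SD of 3 libraries, edgeR log2 fold change -0.15 ± 0.0294 SE, adjusted p = 5.17e-05) and SSR1 by 0.09 on the log2 scale (edgeR adjusted p = 0.00222). SSR3 (0.04, -0.01 to 0.09) and SSR4 (0.01, -0.06 to 0.09) were not called. A pseudogene of SSR4, SSR4P1, has a row at 1.42 CPM in eGFP and 1.08 CPM in TAF2 libraries.

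Of 6 tested degradation genes, 2 fell (33.3%, against 22.4% of all tested genes called lower) and the other 4 were not called. SYVN1 (HRD1), the membrane ubiquitin ligase that marks misfolded proteins, held 96.2, 97.0 and 93.4 CPM in the 3 eGFP libraries and 76.2, 79.4 and 79.6 CPM in the 3 TAF2 libraries. The lowest eGFP library was well above the highest TAF2 library (edgeR log2 fold change -0.29 ± 0.0329 SE, adjusted p = 1.39e-09). Its row overlaps that of MRPL49, so reads may be shared. SYVN1 is on chromosome 11, and its change lies next to the chromosome's median of -0.27. The part of that shift was not tested. SEL1L, the adaptor that holds SYVN1 in its complex, lies on chromosome 14 and had a log2 fold change of -0.01 (95% interval -0.08 to 0.06). Within a library the log2 ratio of SYVN1 to SEL1L was -0.63 to -0.46 in eGFP and -0.94 to -0.75 in TAF2 libraries. EDEM1, which helps to pick glycoproteins for degradation, held 88.7, 92.7 and 86.9 CPM in the 3 eGFP libraries and 76.8, 76.3 and 76.7 CPM in the 3 TAF2 libraries, with no overlap (edgeR log2 fold change -0.22 ± 0.0337 SE, adjusted p = 5.81e-07). HERPUD1, a stress-induced part of the SYVN1 complex, had -0.02 (-0.08 to 0.04). The derlins DERL1 (0.03, -0.06 to 0.11) and DERL2 (-0.13, -0.24 to -0.02) were not called. Without overlap between groups DERL2 went from 23.6 ± 0.556 to 21.6 ± 0.611 CPM (mean ± SD of 3 libraries).

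The FKBP proteins of the ER, which speed the isomerisation of proline bonds, differed from each other. FKBP11 (chromosome 12, 48921963 to 48939034, GRCh38.p14) held 11.2, 10.5 and 10.1 CPM in the 3 eGFP libraries and 1.74, 2.59 and 2.28 CPM in the 3 TAF2 libraries. These are 303, 234 and 252 expected counts against 43, 66 and 64. The groups were far apart, and the TAF2 libraries varied more among themselves than for most members, with a coefficient of variation of 19.4% (edgeR log2 fold change -2.26 ± 0.124 SE, adjusted p = 5.18e-19). It ranked number 38 from the lowest of 12902 tested genes by log2 fold change and first of 664 on its chromosome. Only 2.95% of tested genes were called with a log2 fold change of at least 1 in either direction, among them FKBP11 and RCN1. Its log2 fold change ran from -2.38 to -2.12 over all alternatives. FKBP2 (chromosome 11, 64241095 to 64244135) held 37.99, 35.8 and 38.05 CPM in the 3 eGFP libraries and 26.3, 24.9 and 25.3 CPM in the 3 TAF2 libraries, a fall without overlap (edgeR log2 fold change -0.55 ± 0.0503 SE, adjusted p = 3.5e-12). It was not called by glmTreat against 1.5-fold. FKBP14, which assists collagen folding, had a log2 fold change of 0.00 (95% interval -0.09 to 0.08). Relative to FKBP14 in the same library, FKBP11 had log2 ratios of -2.28 to -2.15 in eGFP and -4.82 to -4.22 in TAF2 libraries, and FKBP2 of -0.51 to -0.24 and -0.95 to -0.90.

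RCN1 (chromosome 11, 32091074 to 32105722) and RCN2 encode reticulocalbins, calcium-binding proteins of the secretory pathway with EF-hand motifs. RCN1 held 106, 103 and 106 CPM in the 3 eGFP libraries and 39.4, 39.1 and 41.4 CPM in the 3 TAF2 libraries. The groups were far apart and each was tight (edgeR log2 fold change -1.39 ± 0.0366 SE, adjusted p = 3.05e-30). RCN2, on chromosome 15, went from 92.6 ± 3.45 to 93.1 ± 2.97 CPM (mean ± SD of 3 libraries) and was not called (log2 fold change 0.01, 95% interval -0.06 to 0.07). The log2 ratio of RCN1 to RCN2 was 0.10 to 0.23 in eGFP and -1.30 to -1.15 in TAF2 libraries. With 3 libraries a group an exact permutation test of such a ratio cannot give a p below 0.1, so none is given.

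**Figure D3:**
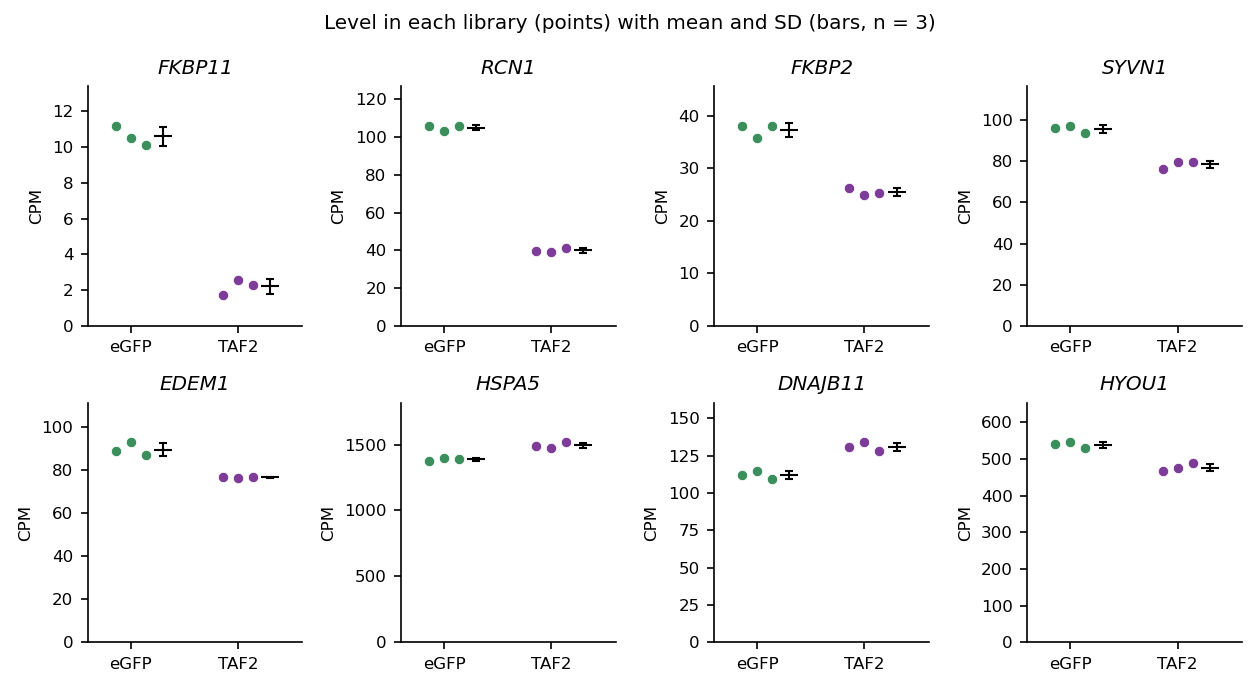
CPM in each library for 8 ER genes, eGFP (green) and TAF2 (purple), with mean and SD beside the points (n = 3); each axis starts at 0. FKBP11, RCN1, FKBP2, SYVN1, EDEM1 and HYOU1 were lower and HSPA5 and DNAJB11 higher in all 3 TAF2 libraries.

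The 100 bases upstream of the start of these strongest fallers are given for comparison with the stress elements above. They lie at chr12:48925493-48925592, minus strand (FKBP11) and chr11:32090974-32091073, plus strand (RCN1), upstream of the start used in the promoter table. As for CANX, the start used for FKBP11 lies inside the gene's listed span. No letters are in capitals because no exact ERSE, ERSE-II or UPRE was found in either gene's window. This says only that these letters are not there.
FKBP11: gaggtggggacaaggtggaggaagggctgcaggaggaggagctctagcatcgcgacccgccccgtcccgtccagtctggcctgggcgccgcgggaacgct
RCN1: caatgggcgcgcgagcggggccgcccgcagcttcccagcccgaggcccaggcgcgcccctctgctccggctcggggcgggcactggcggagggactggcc

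The genes next to FKBP11 lay between -0.49 and 0.12. The 3 nearest tested genes with lower start coordinates were RND1 (log2 fold change -0.49, at 2.14 CPM in eGFP), the helicase DDX23 (0.05) and the adenylate cyclase ADCY6 (-0.04). Those after it were ARF3 (0.01), DDN (-0.16) and PRKAG1 (0.12). Of these 6 only RND1 was called, at an edgeR adjusted p of 0.0465. The FKBP11 gene model overlaps ARF3, a GTPase of vesicle traffic. Whether strand was used in counting is not given in the sources used here, so reads from the shared stretch cannot be assigned. Chromosome 12 as a whole had a median of 0.04 over 543 genes of at least 5 CPM.

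RCN1 lies in a sparse region of chromosome 11, with the nearest tested genes 493 kb or more away by start coordinate. DNAJC24 (-0.30), EIF3M (-0.22) and QSER1 (-0.24) were called lower at about the chromosome's median of -0.27. PRRG4 was also called lower, by an amount nearer to that of RCN1 (log2 fold change -1.09 ± 0.392 SE, edgeR adjusted p = 0.0215), at 0.670 CPM in eGFP and 0.308 CPM in TAF2 libraries. IMMP1L (0.12) and ELP4 (-0.08) were not called. RCN1 was 1.12 below the median of its chromosome and FKBP2 0.28 below it, while SYVN1 was 0.02 below it and HYOU1 0.09 above it. RCN1 ranked number 14 and FKBP2 number 92 from the lowest of 725 tested genes there. Leaving the 4 members on chromosome 11 out, a choice made after seeing the data, 5 members were called higher and 12 lower of 35. This is 48.6%, against 43.0% of all tested genes, and the median was -0.06.

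**Figure D4:**
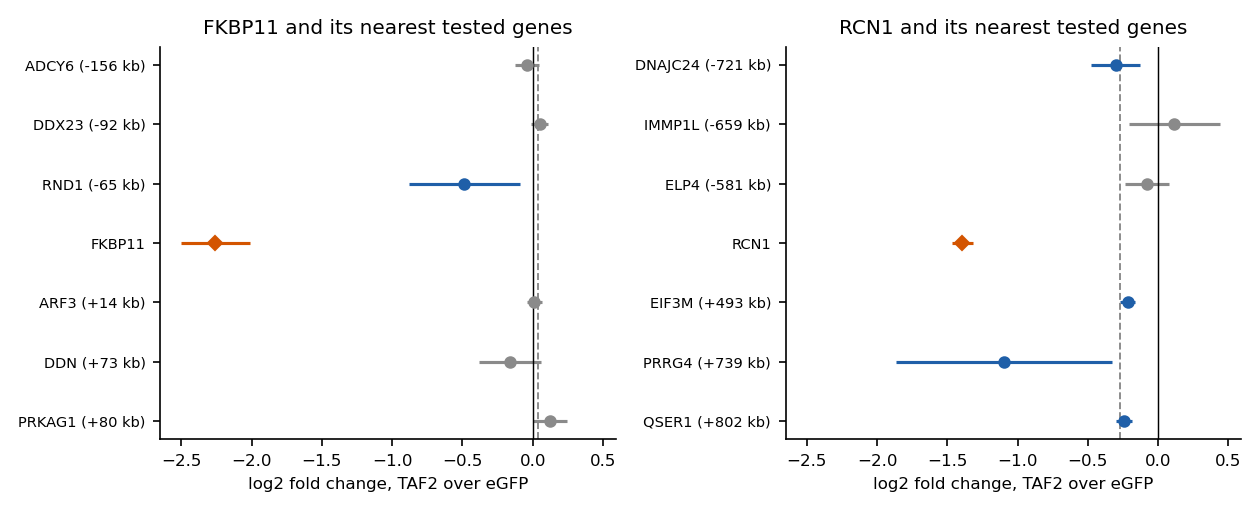
Log2 fold change (TAF2 over eGFP, 95% interval) of FKBP11 and RCN1 (orange diamonds) and of the 3 nearest tested genes on each side, listed by distance between start coordinates; blue is called lower and grey not called. Dashed lines are the medians of chromosome 12 (0.04) and chromosome 11 (-0.27). FKBP11 (-2.26) lies below the intervals of its 6 neighbours, and RCN1 lies below 5 of its 6 neighbours' intervals.

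Another 176 genes of the secretory pathway in 14 lists gave a setting for the 40. Of these 170 were tested, and 42 were called higher and 46 lower (51.8%, against 43.0% of all tested genes). Their median was -0.01 on the log2 scale. The lists sat close to 0, with medians between -0.13 (ER calcium handling) and 0.15 (PERK and ATF4 branch).

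In the PERK and ATF4 branch, the arm of the stress response downstream of EIF2AK3, 7 of 11 tested genes rose (63.6%, against 20.6% of all tested genes) and the other 4 were not called. Of the 7 that rose, 3 were past 1.2-fold: the stress protein NUPR1 (0.56), the factor CEBPB (0.32) and PPP1R15A (0.32), which directs the phosphatase that reverses PERK. EIF2AK3 itself was not called, and its part in these rises was not tested. Among ATF6 processing and related factors, 2 of 10 rose and 2 fell (40.0% called, against 43.0% of all tested genes). CREB3L3 (CREBH), a liver factor anchored in the ER membrane and released by the same proteases as ATF6, went from 17.5 ± 0.696 to 7.07 ± 0.763 CPM (mean ± SD of 3 libraries, log2 fold change -1.30, edgeR adjusted p = 1.09e-16). WFS1 (0.20, chromosome 4) and the ATF6 protease MBTPS1 (0.07) rose.

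The next 4 lists are to be read against all tested genes, of which 43.0% were called, 20.6% higher and 22.4% lower. Of the other thiol oxidoreductases 4 of 20 rose and 6 fell, with GPX7 (-0.73), QSOX1 (-0.31) and TMX2 (-0.29, chromosome 11) named. In the calnexin cycle 1 of 11 rose and 7 fell (72.7% called), with the glucosidase II beta subunit PRKCSH up (0.27), CLGN (-0.38, chromosome 4) and MAN1B1 (-0.17) down. The oligosaccharyltransferase, which attaches N-glycans, fell in 7 of 12 and rose in 2 (75.0% called). TMEM258 (-0.44) and the catalytic STT3A (-0.22) lie on chromosome 11 and OSTC (-0.29) on chromosome 4, where the median was -0.18. Signal peptidase, which removes signal sequences, had 2 of 5 lower, SPCS2 (-0.37, chromosome 11) and SPCS3 (-0.30, chromosome 4), and SEC11A (0.10) higher (60.0% called).

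Other degradation genes were called lower in 6 and higher in 4 of 27 (37.0% called, against 43.0% of all tested genes). The largest changes were in NGLY1 (-0.20), which strips glycans from retrotranslocated proteins, TMEM129 (-0.16, chromosome 4) and RNF5 (-0.15). In the signal recognition particle and its receptor 2 of 8 were lower and 2 higher, among them SRPR (-0.25, chromosome 11), SRP72 (-0.18, chromosome 4) and SRP14 (0.12). The ER membrane protein complex had 3 of 9 higher and 1 lower (44.4% called), with EMC2 (0.28), EMC7 (0.17) and EMC1 (-0.27). Other translocon partners had 3 of 15 higher and 2 lower (33.3% called), with TRAM2 (0.26), NCLN (0.15) and WRB (-0.15).

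Other FKBP proteins were called higher in 5 and lower in 2 of 12 (58.3% called, against 43.0% of all tested genes), with FKBP9 (-0.25), another ER isomerase, and the Hsp90 partner FKBP4 (0.17). Other calcium binders of the reticulocalbin family and nucleobindins had 2 of 5 higher and 2 lower (80.0% called), with NUCB1 (0.18), SDF4 (-0.12) and CALU (0.07). The COPII coat carries folded cargo out of the ER. In the list of COPII coat and cargo genes 4 of 16 were higher and 3 lower (43.75% called). The coat genes SEC31A (-0.22) and SEC24D (-0.21), both on chromosome 4, were lower. TANGO2 (0.29), also in that list and called higher, is not a coat subunit. In ER calcium handling 2 of 9 rose and 4 fell (66.7% called). ITPR3, the type 3 receptor that releases calcium from the ER, rose from 168 ± 4.65 to 297 ± 1.86 CPM (mean ± SD of 3 libraries, log2 fold change 0.82, edgeR adjusted p = 4.61e-28), while STIM1 (-0.20, chromosome 11) and SEPN1 (-0.18) fell.

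**Figure D5:**
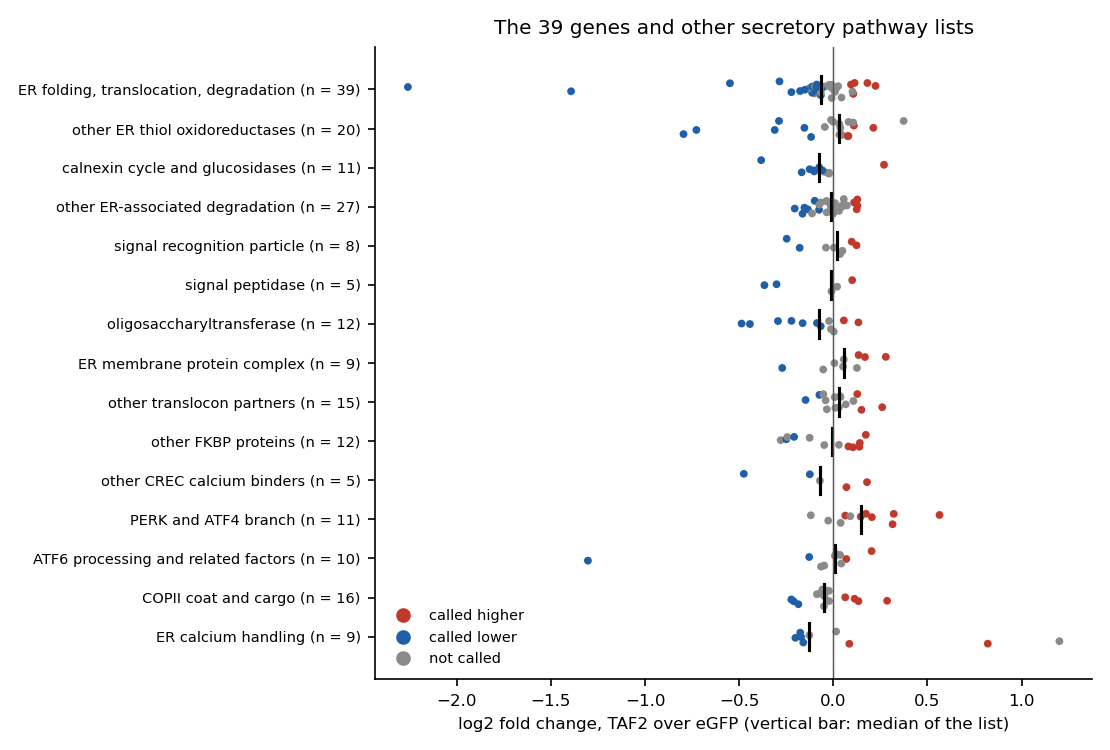
Log2 fold change (TAF2 over eGFP) of each tested gene in the list of 39 ER genes and in 14 other secretory pathway lists; points are genes, red called higher, blue called lower, grey not called, and bars list medians. FKBP11 (-2.26) is the lowest point, and CREB3L3 (-1.30) the lowest outside the 39.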

How the data were processed

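Total RNA of 6 HepG2 libraries (eGFP and TAF2, replicates 1 to 3) was made into TruSeq libraries and sequenced on a HiSeq3000 in 2 rounds, per the labels' protocols. The authors deposited expected counts per gene, not normalized. The submitters' processing notes name RSEM and the hg38 build. Aligner, annotation release and strand use: not given in the sources used here. RSEM divides reads shared between genes, so 4.18% to 4.45% of values per library were not whole.

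Columns were matched to samples by name, and 0 were left unused. Expected counts were rounded, filtered with filterByExpr, scaled by TMM (factors 0.9976 to 1.003) and tested with edgeR 4.0.16 (R 4.3.3; glmQLFit, robust, and glmQLFTest, group alone), with Benjamini-Hochberg adjustment over all 12902 tested genes at 0.05. The SE is the log2 fold change divided by the root of the F statistic, and intervals are 1.96 SE. The procedure was tested on simulated data in which only a small part of the genes changed, in random directions. That test thus does not cover scaling or calling under changes as broad as those seen here. Replicate libraries differed by more than sampling noise (1.98 to 5.84 chi-square units per degree of freedom), so none was taken as a copy.

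Positions come from RefSeq (GRCh38.p14), matched by transcript accession. Levels per kb use GENCODE 29 transcripts paired with the listed accessions. All 40 members were placed and given a length. Promoters come from RefSeq (GRCh38.p14). Of the members, 11 overlap another row of the table, so their reads may be shared.

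The members and gene lists were chosen with earlier results of these data known. All 40 members may be named. From each other list, up to 3 called genes with the largest change, a mean level of 5 CPM or more and groups that do not overlap were named, and for members changed by at least 1 (log2) the 3 nearest tested genes on each side. One gene that this rule names is not reported here. Alternatives were DESeq2 1.42.0, other scalings and filters, glmTreat against 1.2-fold and 1.5-fold, a replicate block and leaving out each library.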

Additional observations from a re-analysis of the deposited data

How the results depend on the processing

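Of the 21 called members, 16 stayed called in all 12 alternatives other than glmTreat, and ATF6, DNAJC3, PDIA6, SEC61A1 and SEC63 did not. No called member changed direction. With glmTreat against 1.2-fold, 1243 of all genes and 0 members higher and 3 lower were called, and against 1.5-fold 373, 0 and 2 (by construction a stricter test; 0 members were higher at an unadjusted p under 0.05 in either). The members' median was -0.053 with upper-quartile scaling and -0.056 with every gene with a count kept, beside -0.066. The median over all genes also moved up in these fits, to 0.011 and 0.0016, beside -0.0027. The cause was not tested. Leaving out each library in turn gave 4800 to 5288 calls over all genes, 4 to 5 members higher, 13 to 16 lower and medians of -0.079 (without TAF2 replicate 2) to -0.050 (without eGFP replicate 2).

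Same-numbered libraries did not deviate together: their deviations from the group means correlated at -0.10, -0.11 and -0.10. Between libraries of different number the correlations ran from 0.02 to 0.08. Deviations from a mean of 3 libraries are tied to each other, so this check cannot settle whether replicates are paired. With the replicate block 5250 genes, 5 members higher and 15 lower were called, with a median of -0.07, and SEC61A1 was lost (edgeR adjusted p = 0.0543). DERL3, at 0 counts, could not be tested, and among tested members FKBP11 had the fewest counts, 43 to 66 in TAF2 libraries.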

Other observations

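The 5-letter core CCACG, which ends the ERSE, was found on either strand in 27 of 36 member promoters (75.0%), against 37.9% of all 27305 promoters and 50.2% of those of tested genes. Every ERSE or ERSE-II match holds these letters, and the list holds genes already known as stress targets. The share is thus not independent of how the list was put together. Of the 27 members with it, 2 were called higher and 13 lower, and their median was -0.09 on the log2 scale. Over all tested genes 20.6% were called higher and 22.4% lower, and the 5166 tested genes with CCACG had a median of 0.00084. The 9 tested members without it had 2 higher and 3 lower and a median of -0.07.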
